A study of Homo sapiens with 4 samples.

Results

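The exosome, deadenylation, decapping and poly(A)-binding genes are the machinery that removes messenger RNA from human cells. They were examined in DLD-1 colorectal cancer cells that overexpress the microRNA miR-21, against DLD-1 cells that carry the vector alone. A fixed list of 42 genes was used, out of 18365 genes with a probe of their own on the array. It was matched to the 61 of 31741 probes whose only annotated symbol was one of these genes, and this match used the annotation alone. The list itself was chosen with earlier results of these data known. Both lines came from DLD-1 cells, an established epithelial line of the human colon. DLD-1-miR-21 cells had received a plasmid that encodes human miR-21, and DLD-1-miR-Vec cells had received the empty plasmid pCMV-MIR. Each line was a pool of single clones kept under G418 and picked for green fluorescent protein, so neither line is 1 clone and both carry the selection. Total RNA of each line was hybridized to 2 single-color arrays.

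Messenger RNA is removed in steps. CCR4-NOT and PAN2-PAN3 shorten the poly(A) tail, which is otherwise covered by poly(A)-binding proteins. The body is then degraded along 1 of 2 routes. On one, DCP2 with DCP1 removes the cap and XRN1 digests the RNA from its 5′ end. On the other, the exosome digests it from its 3′ end, and DCPS takes apart the cap that is left. MicroRNAs use the same machinery, since an Argonaute protein that carries a microRNA recruits CCR4-NOT through GW182 proteins, and deadenylation, decapping and decay of the target follow.

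The microRNA that sets the lines apart is shown first, with its seed (bases 2 to 8, which pair with targets) in capitals. It lies at chr17:59841273-59841294 on the plus strand of GRCh38.p14 in the RefSeq table.
hsa-miR-21-5p: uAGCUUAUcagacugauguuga

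RefSeq promoters were matched for 36 of the 42 genes, 4 of them under a newer symbol. The 250 bases before the annotated start were searched on both strands for 6 motifs, namely the SP family GC box (GGGCGG), the NF-Y CCAAT box (CCAAT), the ETS family motif CCGGAAG, the NRF1 motif GCATGCGC, the TATA box (TATAAA) and the E-box (CACGTG). The GC box was found in 27 of 36 promoters (75%), against 42.3% of 27305 promoters in the table. By call, it was found in 15 of 19 promoters of genes with lower probes only and in 5 of 8 promoters of genes with higher probes only. The CCAAT box was found in 13 of 36 (36.1%, against 33% of all promoters), and TATAAA was found in 2 (5.56%, against 11.1%). The ETS motif was in 5 (13.9%, against 8.82%), the NRF1 motif in 2 (5.56%, against 2.81%) and the E-box in 4 (11.1%, against 6.49%). A match is a description of the letters and no test of binding. The windows below belong to EXOSC7, EXOSC2 and DDX6, which had the largest decreases of the exosome ring, the exosome cap and the decapping genes, and to EXOSC6, the only ring gene that was higher. They are written 5′ to 3′ on the strand of the gene with GC and CCAAT boxes of either strand in capitals, and the EXOSC6 window held none of the 6 motifs. In GRCh38.p14 they lie at chr3:44975994-44976243 (plus strand, EXOSC7), chr9:130693510-130693759 (plus strand, EXOSC2), chr11:118791745-118791994 (minus strand, DDX6) and chr16:70251941-70252190 (minus strand, EXOSC6).
EXOSC7 promoter: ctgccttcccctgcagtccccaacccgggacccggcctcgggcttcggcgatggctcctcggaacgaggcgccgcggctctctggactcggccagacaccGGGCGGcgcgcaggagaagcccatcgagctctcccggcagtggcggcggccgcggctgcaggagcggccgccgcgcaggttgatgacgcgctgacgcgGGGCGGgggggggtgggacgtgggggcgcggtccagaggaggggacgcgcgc
EXOSC2 promoter: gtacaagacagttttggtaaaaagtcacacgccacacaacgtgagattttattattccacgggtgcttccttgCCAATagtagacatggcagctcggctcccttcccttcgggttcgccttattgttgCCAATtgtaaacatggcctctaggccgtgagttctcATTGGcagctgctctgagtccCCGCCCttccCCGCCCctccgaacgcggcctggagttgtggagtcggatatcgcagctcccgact
DDX6 promoter: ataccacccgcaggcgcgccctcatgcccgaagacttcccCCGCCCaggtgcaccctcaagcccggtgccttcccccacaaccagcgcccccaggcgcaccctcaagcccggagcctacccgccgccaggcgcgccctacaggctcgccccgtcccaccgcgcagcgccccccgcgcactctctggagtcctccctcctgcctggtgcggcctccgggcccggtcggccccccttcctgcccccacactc
EXOSC6 promoter: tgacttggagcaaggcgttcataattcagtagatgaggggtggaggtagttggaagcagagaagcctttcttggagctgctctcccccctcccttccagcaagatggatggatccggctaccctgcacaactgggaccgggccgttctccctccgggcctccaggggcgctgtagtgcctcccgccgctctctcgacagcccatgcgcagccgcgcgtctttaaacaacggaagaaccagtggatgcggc

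The table gives 1 background-subtracted intensity per probe and array. The DLD-1-miR-21 arrays had medians of 255 and 339 and the DLD-1-miR-Vec arrays both had 571, so the arrays were quantile-normalized before the lines were compared. Log2 ratios below divide DLD-1-miR-21 by DLD-1-miR-Vec, so a negative one means lower in DLD-1-miR-21 cells. Their median over all probes was 0.07 after this step, and -0.63 without it. Brighter and dimmer describe the signal of probes, which does not compare the amounts of transcripts. Log2 intensities correlated at 0.9904 between the DLD-1-miR-21 arrays, at 0.9836 between the DLD-1-miR-Vec arrays and at 0.9087 to 0.9398 between lines. No label says that the arrays of a line hold separate cultures, and the p-values then cover the spread between these arrays alone, which may be technical. With so few arrays, the precision of each value is limited by their number. No probe carried the symbol MIR21, so the overexpression itself was not analysed here. Both probes of PDCD4, a known miR-21 target, had lower deposited intensities in DLD-1-miR-21 cells (37 and 46, and 431 and 541) than in DLD-1-miR-Vec cells (140 and 125, and 1054 and 1172), but only the dimmer probe passed the test after normalization (log2 ratios -0.65 and -0.08, adjusted p by limma 0.0225 and 0.617). Of 7 colon epithelial markers, 6 had a probe and 5 of these lay above the median probe, and their deposited intensities summed to 141392 and 148475 in DLD-1-miR-21 cells and 290475 and 328053 in DLD-1-miR-Vec cells. After normalization the sums were 210539 and 215571 in DLD-1-miR-21 cells and 227410 and 239136 in DLD-1-miR-Vec cells. Single markers went both ways, with EPCAM (-1.12) and KRT8 (-1.17) lower and VIL1 (1.58) higher. Of 9 markers of blood cells, fibroblasts and endothelium, 8 had a probe and 3 lay above the median probe, with deposited sums of 6226 and 8498 in DLD-1-miR-21 cells and 8713 and 7925 in DLD-1-miR-Vec cells. Their normalized sums were 11296 and 13087 in DLD-1-miR-21 cells and 6396 and 5640 in DLD-1-miR-Vec cells. PTPRC, which marks blood cells, lay near background, with deposited intensities of 18 to 46 in DLD-1-miR-21 cells and 55 to 81 in DLD-1-miR-Vec cells, whereas CD14 had 2994 and 3778 in DLD-1-miR-21 cells and 2837 and 3072 in DLD-1-miR-Vec cells. After normalization CD14 was higher (log2 ratio 1.43, adjusted p = 0.00339), as were PDGFRB (1.10, adjusted p = 0.00481) and both COL1A2 probes (0.73 and 0.69), and without normalization their ratios were 0.19, 0.25, 0.13 and 0.35. The part of these markers in the results was not tested.

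More of the decay probes were lower than higher in DLD-1-miR-21 cells. Of the 61 probes, 31 (50.8%) were lower and 12 (19.7%) were higher at an adjusted p under 0.05 (limma, Benjamini-Hochberg over all probes), and 18 did not pass. Over all 31741 probes, 21.8% were lower and 23.0% were higher. The share of lower probes among the decay genes was thus above the share over the array, and the share of higher probes was slightly below it. As the list was chosen with earlier results of these data known, this difference is not independent of them. Their median log2 ratio was -0.57 (quartiles -1.24 and 0.12), against 0.07 over all probes. Single ratios ranged between -3.67, in the exosome ring gene EXOSC7, and 1.98, in the deadenylase gene CNOT6. In bulk RNA, fewer cells that express a gene and less RNA per cell cannot be told apart.

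Calls were also counted on either side of the median brightness, since 45 of the 61 probes were brighter than the median probe. The median log2 signal of these 45 was 11.83, against 10.96 for all brighter probes, so the split matches brightness only roughly. Of these 45, 24 were lower and 11 higher, against 26.4% lower and 28.2% higher among all probes of that range. Among the 16 dimmer probes, 7 were lower and 1 was higher, against 17.1% lower and 17.7% higher among all dimmer probes. Counted by gene, 24 of 42 genes had a lower probe and no higher one, 9 had a higher probe and no lower one, 2 had probes in both directions and 7 had no probe past the threshold. Over all genes these shares were 25.9%, 24.8% and 3.19% for lower only, higher only and both. Of the lower probes, 17 had a log2 ratio of -1 or below and 6 of -2 or below, and 4 of the higher probes reached 1. Over all probes the log2 ratios ranged from -7.64 to 3.97. Both DLD-1-miR-21 arrays lay below both DLD-1-miR-Vec arrays for 37 of the 61 probes and above them for 14, and the lines overlapped for 10. Neither these sizes nor this separation was counted over all probes, so neither sets the decay genes apart from the array. Leaving out the normalization moved nearly all probes down together, so that 26310 of 31741 had a negative log2 ratio. All 31 lower probes then stayed negative, as did all 6912 lower probes of the array, so this is no sign of stability. Of the 12 higher probes, 9 then had a negative ratio, the exceptions being a probe each of PNPT1, CNOT6 and BTG1, and over the array 45.5% of the 7294 higher probes did. Median centring ended the calls of EXOSC6, SKIV2L, WDR61, CNOT10, CNOT6 probe 1, PARN, TOB1 and XRN1 probe 1, whose ratios stayed positive, and left 4 of the 12 higher probes called.

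**Figure D1:**
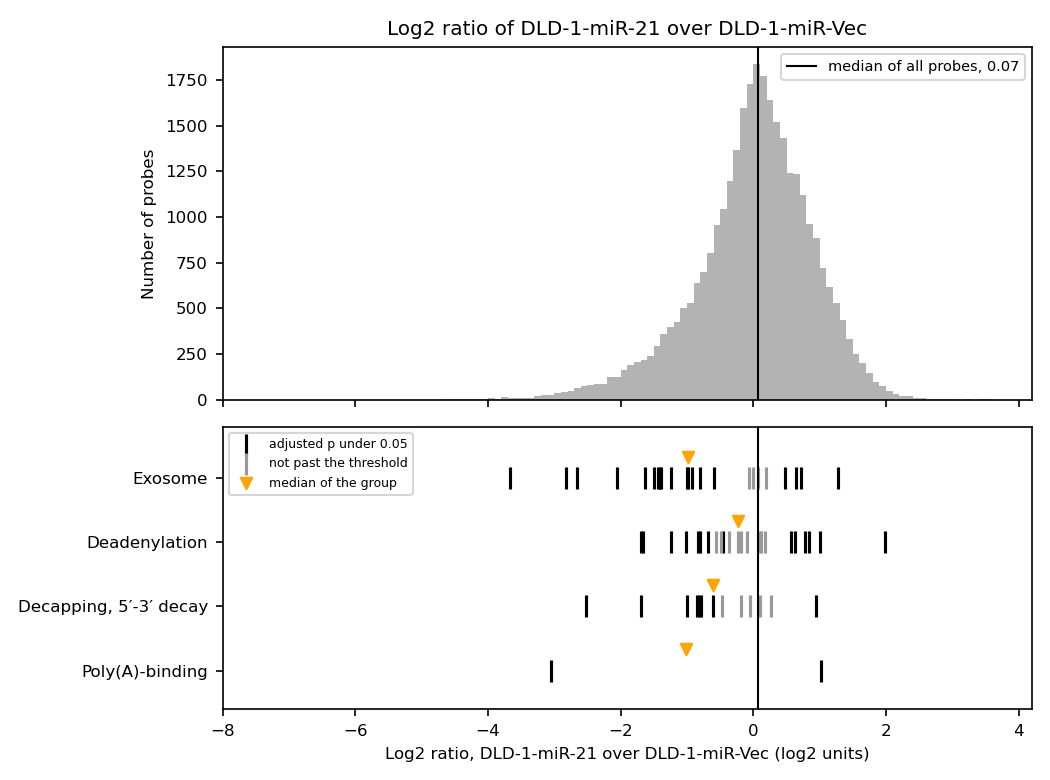
The upper panel is a histogram of log2 ratios, DLD-1-miR-21 divided by DLD-1-miR-Vec, for all 31741 probes (y axis, number of probes), with a line at their median of 0.07. The lower panel shows each of the 61 decay probes as a tick by role (black, adjusted p under 0.05; gray, not past it) with a triangle at the median of the role, and the exosome ticks reach farthest to the left, to -3.67.

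The exosome is a barrel of 6 ring proteins (EXOSC4 to EXOSC9) closed by a cap of 3 RNA-binding proteins (EXOSC1, EXOSC2 and EXOSC3). RNA is threaded through it to the nuclease DIS3, and EXOSC10 is a further nuclease of the exosome. Most exosome probes fell. Of 23 probes of 17 genes, 15 (65.2%) passed as lower, 4 (17.4%) as higher and 4 did not pass. Over all probes, 21.8% were lower and 23.0% were higher. The median log2 ratio of the exosome probes was -0.98. Within the ring and cap, 10 of 13 probes were lower and 1 was higher, with a median of -1.39. These 9 genes split into 7 with lower probes only, EXOSC6 with a higher probe, and EXOSC8 with no probe past the threshold. Of all genes, 25.9% had lower probes only and 24.8% had higher probes only.

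All 4 cap probes were lower. EXOSC2 had normalized intensities of 1295 and 1046 in DLD-1-miR-21 cells, against 8715 and 8389.5 in DLD-1-miR-Vec cells on its brighter probe (log2 ratio -2.82, standard error 0.15, adjusted p = 0.002). On the second probe, 441 and 312 in DLD-1-miR-21 cells, against 712 and 793 in DLD-1-miR-Vec cells were measured (log2 ratio -0.93, standard error 0.19, adjusted p = 0.0209). Both probes separated the lines, but the decrease was larger on the bright one. EXOSC3 was lower on its 1 probe (log2 ratio -1.63), and EXOSC1 was lower too (-0.80), with nearly the same value on both arrays of each line.

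In the ring, the proteins pair as EXOSC4 with EXOSC9, EXOSC5 with EXOSC8, and EXOSC6 with EXOSC7. EXOSC7 had the largest decrease of all 61 probes, with 742 and 839 in DLD-1-miR-21 cells, against 9616 and 11791 in DLD-1-miR-Vec cells (log2 ratio -3.67, standard error 0.16, adjusted p = 0.00196, 95% confidence interval -4.10 to -3.24). Its other probe gave a smaller decrease (-1.39), and neither probe overlapped between the lines. The partner EXOSC6 was higher, with 11871 and 10408 in DLD-1-miR-21 cells, against 6830.5 and 6664 in DLD-1-miR-Vec cells (log2 ratio 0.72, standard error 0.13, adjusted p = 0.0154), although its ratio was 0.33 under median centring, where it did not pass, and -0.52 without normalization. EXOSC4 fell on both probes, with a log2 ratio of -1.0 on the brighter. On the dimmer one the intensities were 509 and 420.0 in DLD-1-miR-21 cells, against 2887 and 3500.4 in DLD-1-miR-Vec cells (log2 ratio -2.66, standard error 0.17, adjusted p = 0.00224). EXOSC9, its partner, was lower (-2.05). EXOSC5 was lower (-1.49), but neither probe of its partner EXOSC8 passed the test (-0.01 and -0.06, adjusted p = 0.953 and 0.738), and on both the values of the lines overlapped. The EXOSC8 probes were bright, with normalized intensities of 23141 and 21744 in DLD-1-miR-21 cells, against 20732 and 24686 in DLD-1-miR-Vec cells on the first probe. Its 95% confidence intervals were -0.40 to 0.38 and -0.40 to 0.29, on the log2 scale.

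The nucleases did not move alike. EXOSC10, the nuclear exonuclease, was lower on both probes (-0.59 and -1.40), while DIS3, the main catalytic subunit, had a log2 ratio of 0.07 that did not pass (adjusted p = 0.727, 95% confidence interval -0.33 to 0.47). Whether these genes differed from each other in their change was not tested. Of the nuclear cofactors, MPHOSPH6, which binds the nuclear exosome, was lower (-0.98), and SKIV2L2, the helicase also called MTR4 that feeds RNA to it, had 0.19 (adjusted p = 0.324) and -1.05 without normalization.

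The SKI complex feeds cytoplasmic RNA into the exosome and consists of the helicase SKIV2L with TTC37 and WDR61. SKIV2L was higher, with normalized intensities of 20052 and 22809 in DLD-1-miR-21 cells, against 13853 and 13647 in DLD-1-miR-Vec cells (log2 ratio 0.64, standard error 0.13, adjusted p = 0.0204), with 0.29 under median centring, where the call was lost, and -0.56 without normalization. WDR61 was higher by a log2 ratio of 0.48, a call that cyclic loess also ended, and it too had -0.56 without normalization. TTC37, a dim probe, was lower (-1.43), and had -1.95 without normalization, where all 6912 lower probes of the array stayed negative.

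PNPT1, the polynucleotide phosphorylase of mitochondria, resembles the exosome ring but is not part of it, and its probes went in opposite directions. The first had intensities of 1700.5 and 2309 in DLD-1-miR-21 cells, against 1005 and 622 in DLD-1-miR-Vec cells (log2 ratio 1.27, standard error 0.29, adjusted p = 0.0254). The dimmer second had 208 and 125 in DLD-1-miR-21 cells, against 459 and 444 in DLD-1-miR-Vec cells (log2 ratio -1.24, standard error 0.22, adjusted p = 0.014). Each probe separated the lines, the first with DLD-1-miR-21 arrays on top and the second with DLD-1-miR-Vec arrays on top. Without normalization the ratio of the first probe was 0.10 and no longer passed. Leaving out PNPT1, 14 of 21 exosome probes were lower and 3 were higher.

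**Figure D2:**
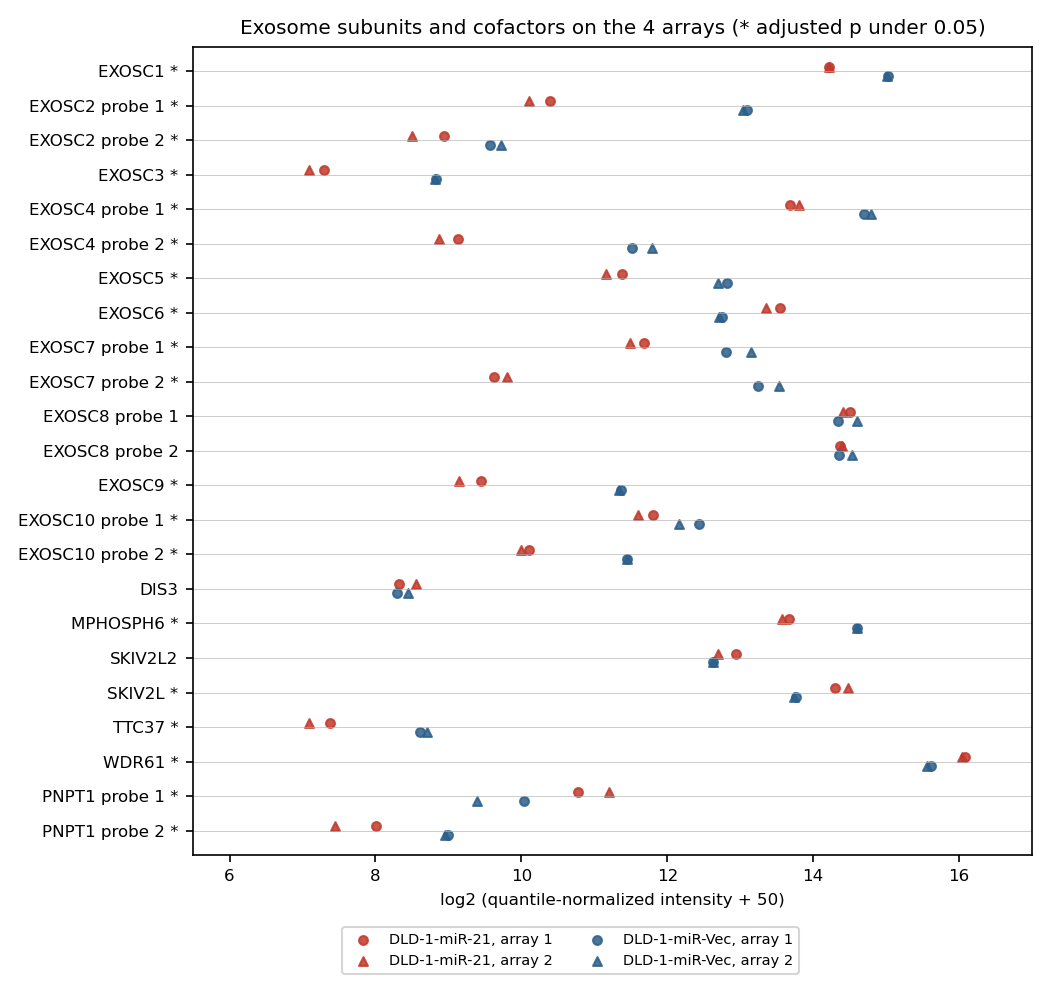
Each row is a probe of an exosome subunit or cofactor, and the x axis is log2 of the quantile-normalized intensity plus 50, with DLD-1-miR-21 arrays in red and DLD-1-miR-Vec arrays in blue (circle, array 1; triangle, array 2; star, adjusted p under 0.05). The red points lie left of the blue ones in 15 starred rows, widest for EXOSC7 probe 2, and the points of both EXOSC8 probes overlap.

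Deadenylation genes went in both directions. Of 23 probes of 14 genes, 8 (34.8%) passed as lower and 6 (26.1%) as higher, and 9 did not pass, with a median log2 ratio of -0.23. The share of higher probes was near the 23.0% over all probes, and that of lower probes was above the 21.8%. By gene, 6 had lower probes only, 4 had higher probes only, BTG1 had both, and 3 (CNOT4, CNOT6L and PAN2) had none past the threshold. The shares over all genes were 25.9%, 24.8%, 3.19% and 46.2%. For CCR4-NOT alone, 6 of 15 probes were lower and 3 were higher, with a median of -0.37.

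CNOT1 is the scaffold on which CCR4-NOT is built, CNOT2 and CNOT3 form a module at its end, CNOT10 binds its beginning, and CNOT4 is a ubiquitin ligase that associates loosely. CNOT3 was lower, at 171 and 146 in DLD-1-miR-21 cells, against 572 and 655 in DLD-1-miR-Vec cells (log2 ratio -1.67, standard error 0.14, adjusted p = 0.0031). CNOT2 was lower on the dimmer of its probes, with 1052 and 850.2 in DLD-1-miR-21 cells, against 2164 and 2438 in DLD-1-miR-Vec cells (log2 ratio -1.24, standard error 0.16, adjusted p = 0.00689), whereas its brighter probe had a ratio of 0.10 and did not pass. Both called probes separated the lines by more than the gap between arrays of a line. CNOT1 itself was lower on the brighter probe (-0.46), near the threshold (adjusted p = 0.0414), and had 0.12 on the dim one (adjusted p = 0.686). CNOT10, a bright probe, was higher (0.57), with -0.59 without normalization. For CNOT4 the ratios were -0.23 and -0.57, and neither passed.

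CCR4-NOT holds a pair of nucleases, one being CNOT7 or CNOT8 and the other CNOT6 or CNOT6L, so that each place can be filled by 1 of 2 paralogs. On the first place, both paralogs were lower. CNOT7 fell on the brighter probe (-0.69) and, on the dimmer one, had 972 and 687 in DLD-1-miR-21 cells, against 2872 and 2648 in DLD-1-miR-Vec cells (log2 ratio -1.69, standard error 0.20, adjusted p = 0.00559). CNOT8 had a log2 ratio of -0.83 and passed. On the second place, CNOT6 was higher on both probes. The dimmer CNOT6 probe had the largest increase of the list, with 2704 and 3827 in DLD-1-miR-21 cells, against 1164 and 512 in DLD-1-miR-Vec cells (log2 ratio 1.98, standard error 0.42, adjusted p = 0.0222). Its DLD-1-miR-Vec arrays differed by 1.11 on the log2 scale, more than any other decay probe, and both still lay below both DLD-1-miR-21 arrays. The brighter CNOT6 probe was higher by 0.78 and turned to -0.45 without normalization, while the dimmer one stayed positive at 0.79 but did not pass. CNOT6L had -0.18 and -0.37, and neither probe passed.

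Outside CCR4-NOT, PAN3, the adaptor of the PAN2 nuclease, was lower on 1 probe (-1.01) and had -0.48 on the other, which did not pass (adjusted p = 0.0551). Its first probe no longer passed under median centring. PAN2 had -0.09 and 0.17, neither past the threshold. PARN, a poly(A)-specific ribonuclease that also trims noncoding RNA, was higher, with 10326 and 10191 in DLD-1-miR-21 cells, against 5724 and 5708 in DLD-1-miR-Vec cells (log2 ratio 0.84, standard error 0.12, adjusted p = 0.00774), although 0.44 and not past the threshold under median centring, and -0.41 without normalization. Its arrays agreed closely within each line. TOB1, which links CNOT7 and CNOT8 to poly(A)-binding proteins, was higher by 0.63, and turned to -0.64 without normalization.

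BTG1, an antiproliferative relative of TOB1 that also binds CNOT7 and CNOT8, had probes in both directions. The brighter had 1057 and 859 in DLD-1-miR-21 cells, against 1490.5 and 1939 in DLD-1-miR-Vec cells (log2 ratio -0.80, standard error 0.19, adjusted p = 0.0306), and the dimmer had 292 and 345 in DLD-1-miR-21 cells, against 150.5 and 117 in DLD-1-miR-Vec cells (log2 ratio 1.01, standard error 0.16, adjusted p = 0.0109). The dimmer probe kept a positive ratio without normalization (0.43) but did not pass there.

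Decapping and 5′-3′ decay genes were mostly lower. Of 13 probes of 9 genes, 7 (53.8%) passed as lower, 1 (7.69%) as higher and 5 did not pass. Over all probes, 21.8% were lower and 23.0% were higher. The median log2 ratio of the 13 probes was -0.61. Each of 7 genes had 1 lower probe and no higher one, XRN1 had a higher probe, and EDC3 had none past the threshold. Of all genes, 25.9% had lower probes only and 24.8% had higher probes only.

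DCP2 is the enzyme that removes the cap, and DCP1A and DCP1B are its activators. The brighter DCP2 probe had 808 and 626 in DLD-1-miR-21 cells, against 1434 and 1508 in DLD-1-miR-Vec cells (log2 ratio -1.0, standard error 0.16, adjusted p = 0.0118), and the dim one had a ratio of 0.26 that did not pass. DCP1B was lower (-0.85), a call that median centring ended. DCP1A was lower on its dimmer probe (-0.82) and had -0.19 on the brighter one (adjusted p = 0.277). DCPS, the scavenger that hydrolyzes the cap left over from 3′-5′ decay, was one of the bright probes and fell to 9589 and 10498 in DLD-1-miR-21 cells, against 31608 and 33202 in DLD-1-miR-Vec cells (log2 ratio -1.69, standard error 0.13, adjusted p = 0.0026). Its arrays agreed closely within each line.

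Of the factors that promote decapping, DDX6, a helicase that also binds CNOT1 in microRNA-guided repression, had the largest decrease. Its brighter probe measured 5332 and 4060.5 in DLD-1-miR-21 cells, against 24689 and 29297 in DLD-1-miR-Vec cells (log2 ratio -2.52, standard error 0.19, adjusted p = 0.00266). The dimmer DDX6 probe had a ratio of 0.10 (adjusted p = 0.685) with overlapping lines, and -0.96 without normalization. These probes differed by 2.62 log2 units, the widest gap between probes of a gene on the list. EDC4, the scaffold that joins DCP1 and DCP2, was lower (-0.79), and EDC3 had -0.05 with overlapping lines (95% confidence interval -0.39 to 0.29).

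XRN1, the cytoplasmic nuclease that digests decapped RNA, was higher on its brighter probe, with 3194 and 2291 in DLD-1-miR-21 cells, against 1327 and 1430.1 in DLD-1-miR-Vec cells (log2 ratio 0.95, standard error 0.20, adjusted p = 0.0211), although 0.57 and not past the threshold under median centring, and -0.28 without normalization. Its dimmer probe had -0.47 and did not pass (adjusted p = 0.12). XRN2, the nuclear relative that acts in transcription termination, was lower (-0.61).

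The poly(A)-binding genes gave opposite results. PABPC4 was lower, with 536 and 436 in DLD-1-miR-21 cells, against 4018 and 4764 in DLD-1-miR-Vec cells (log2 ratio -3.05, standard error 0.17, adjusted p = 0.002, 95% confidence interval -3.50 to -2.61). PABPC1, the major cytoplasmic poly(A)-binding protein, was higher, with 4248 and 5199.8 in DLD-1-miR-21 cells, against 2395 and 2205 in DLD-1-miR-Vec cells (log2 ratio 1.02, standard error 0.16, adjusted p = 0.00993), and turned to -0.25 without normalization. Each probe separated the lines. The PABPC family has near-identical copies, and 2 probes that carried a member's symbol beside another gene's were left out.

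**Figure D3:**
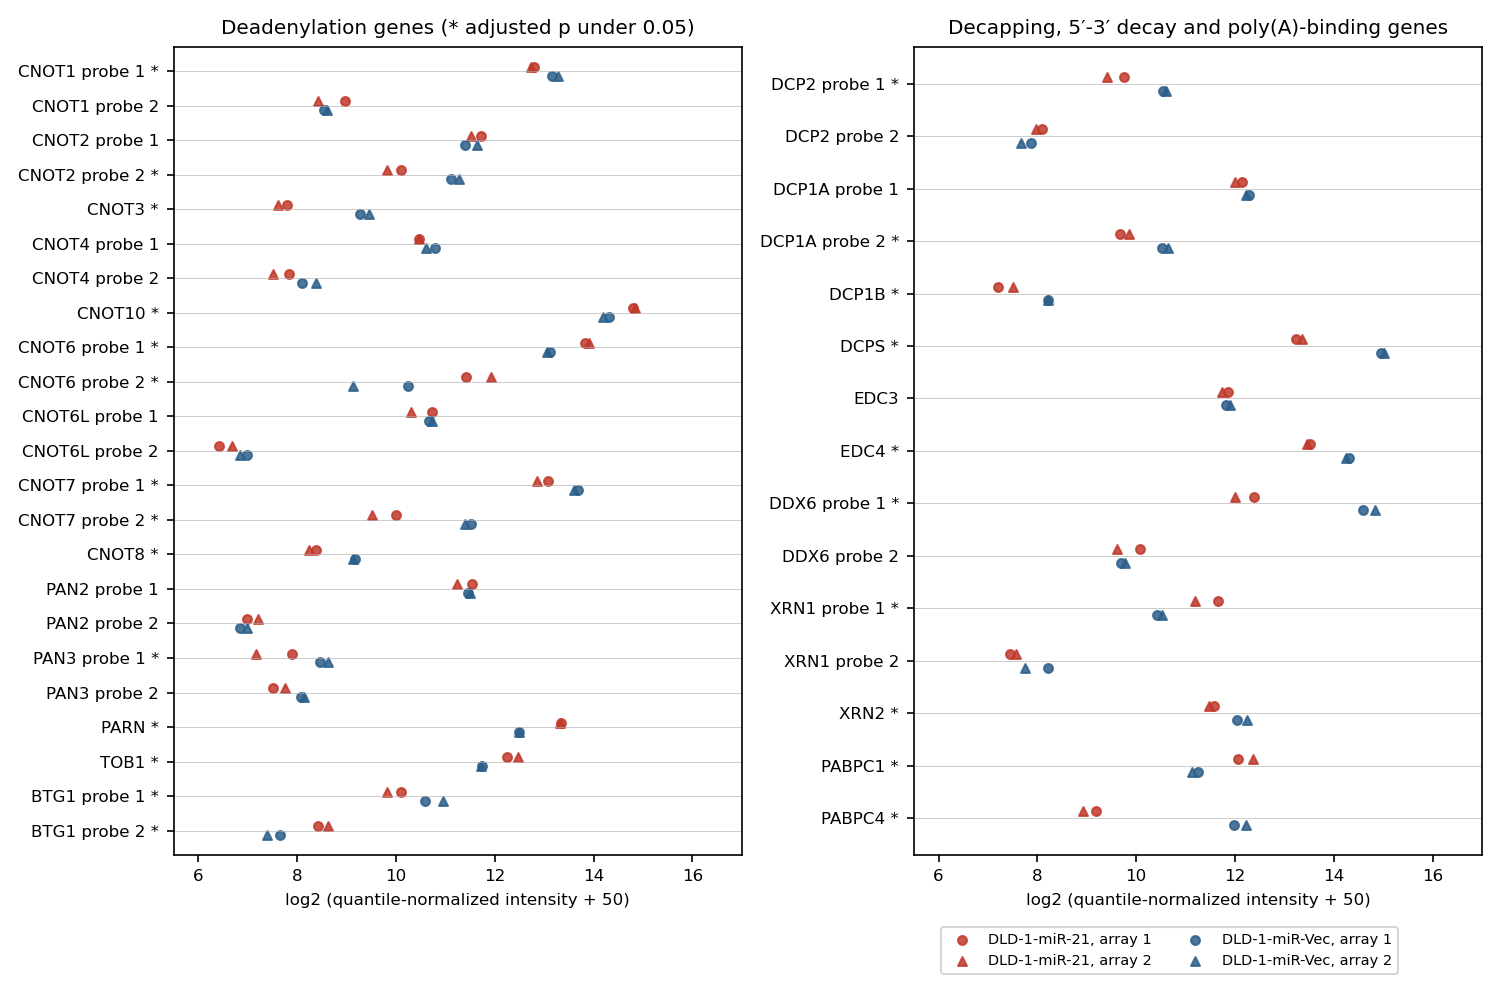
Rows are probes of deadenylation genes (left panel) and of decapping, 5′-3′ decay and poly(A)-binding genes (right panel), on log2 of the quantile-normalized intensity plus 50, with DLD-1-miR-21 arrays in red and DLD-1-miR-Vec arrays in blue (circle, array 1; triangle, array 2; star, adjusted p under 0.05). Deadenylation rows lie on both sides, CNOT6 probe 2 having the widest shift to the right in DLD-1-miR-21, and DDX6 probe 1 and PABPC4 show the widest gaps in the right panel.

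Altogether 23 genes had 1 probe and 19 had 2 probes, which allowed a check within genes. Both probes were lower in 5 genes (EXOSC2, EXOSC4, EXOSC7, EXOSC10 and CNOT7) and both were higher in CNOT6. In 7 genes only 1 of the probes passed, in 4 (EXOSC8, CNOT4, CNOT6L and PAN2) neither passed, and PNPT1 and BTG1 gave opposite calls. The ratios of the probes differed by over 1 log2 unit in 11 of the 19 genes. Decreases of these genes were thus seen with different probes in 5 cases, and the size of a change was often not shared between probes. Such agreement was not counted over all genes with 2 probes, so these counts do not set the decay genes apart. Which transcripts each probe detects was not analysed here.

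**Figure D4:**
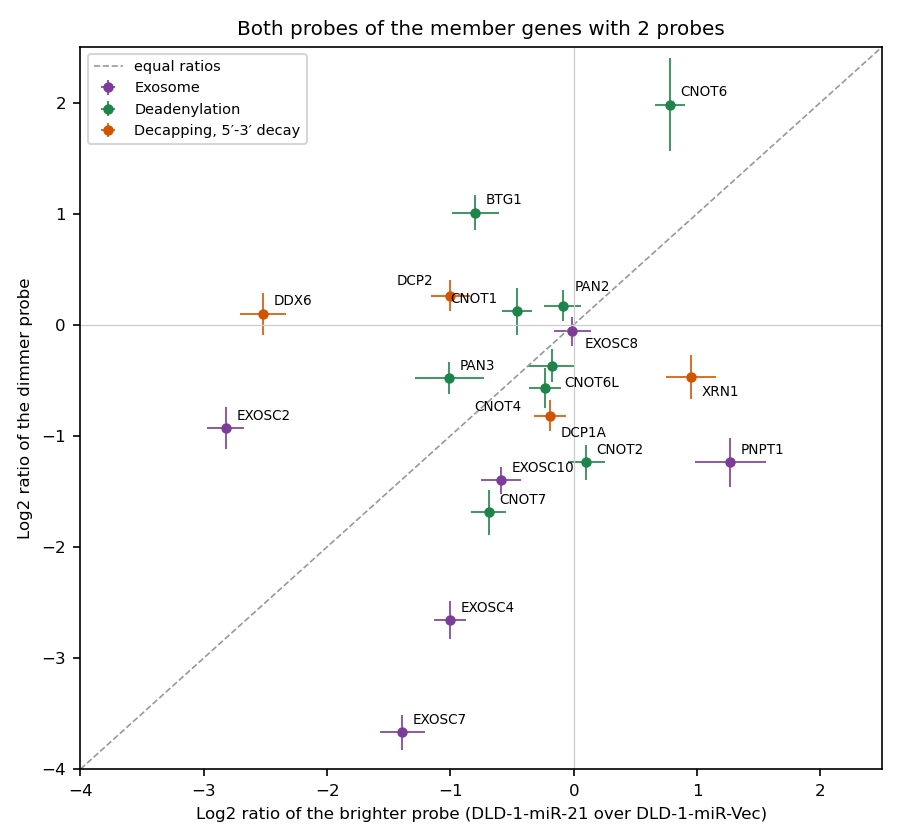
Each point is 1 of the 19 genes with 2 probes, with the log2 ratio (DLD-1-miR-21 divided by DLD-1-miR-Vec) on the brighter probe (x axis) and on the second probe (y axis). EXOSC2, EXOSC4 and EXOSC7 lie low on both axes, whereas PNPT1 and BTG1 lie in quadrants of opposite sign.

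Other genes of RNA decay were listed beside the 42, namely LSM proteins and PATL1, further nucleases, exosome cofactors, further CCR4-NOT and TOB/BTG genes, poly(A)-binding proteins and their partners, nonsense-mediated decay factors and sequence-specific binders. Of 51 such genes, 44 had a probe of their own. Of their 64 probes, 32 (50%) were lower and 14 (21.9%) were higher, with a median log2 ratio of -0.52. These shares were close to those of the 61 probes above, and over all probes they were 21.8% and 23.0%. By gene, 21 (47.7%) had lower probes only, 6 (13.6%) had higher probes only, 8 (18.2%) had both and 9 (20.5%) had none. The shares over all genes were 25.9%, 24.8%, 3.19% and 46.2%.

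The exosome cofactors were mostly lower, with 10 of 13 probes (76.9%) lower and 2 (15.4%) higher, against 21.8% and 23.0% over all probes. Of their 8 genes, 6 had lower probes only, and DIS3L and HBS1L had both. Of all genes, 25.9% had lower probes only and 3.19% had both. The genes named here were chosen after their values were seen. C1D, a partner of EXOSC10, was lower on both probes (-1.10 and -2.11), PAPD7, a noncanonical poly(A) polymerase, was lower (-2.79), and RBM7 and ZCCHC8, which form the nuclear exosome targeting complex with SKIV2L2, were lower (-1.10 and -0.61). DIS3L, a cytoplasmic relative of DIS3, had 1.62 and -1.30 on its probes. For the LSM proteins and PATL1, 6 of 13 probes were lower and 4 were higher, and the 2 probes of LSM4, a subunit of the LSM ring, had -4.66 and 0.24, the second not past the threshold (adjusted p = 0.215). Of the nonsense-mediated decay genes, 3 of 5 had lower probes only, against 25.9% of all genes. UPF1 was among these 3 (-0.89), and the rest of the 5 had no probe past the threshold. RQCD1, the CCR4-NOT subunit also called CNOT9, was lower (-2.01).

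The counts were repeated under other settings. Cyclic loess gave 32 lower and 11 higher probes, against 22.9% lower and 19.3% higher over all probes. Median centring gave 31 lower and 5 higher, against 20.7% and 24% over all probes. Without normalization between arrays, 46 were lower and 0 higher (0 also at an unadjusted p under 0.05), against 44.2% lower and 1.31% higher over all probes. The median of the 61 probes minus the median of all probes was between -0.83 and -0.53 under every setting in the plot. With DLD-1-miR-21 replicate 2 left out, no probe of the array passed, and the median log2 ratio was -0.56 for the decay probes and 0.07 over all probes. Leaving out DLD-1-miR-21 replicate 1 gave medians of -0.66 and 0.08, and leaving out DLD-1-miR-Vec replicate 2 gave -0.52 and 0.07. All 43 called probes kept the sign of their log2 ratio in each of the 4 fits that left out 1 array. Each of them already separated the lines on the 4 arrays, so leaving 1 out could hardly turn a sign, and this is no sign of stability.

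**Figure D5:**
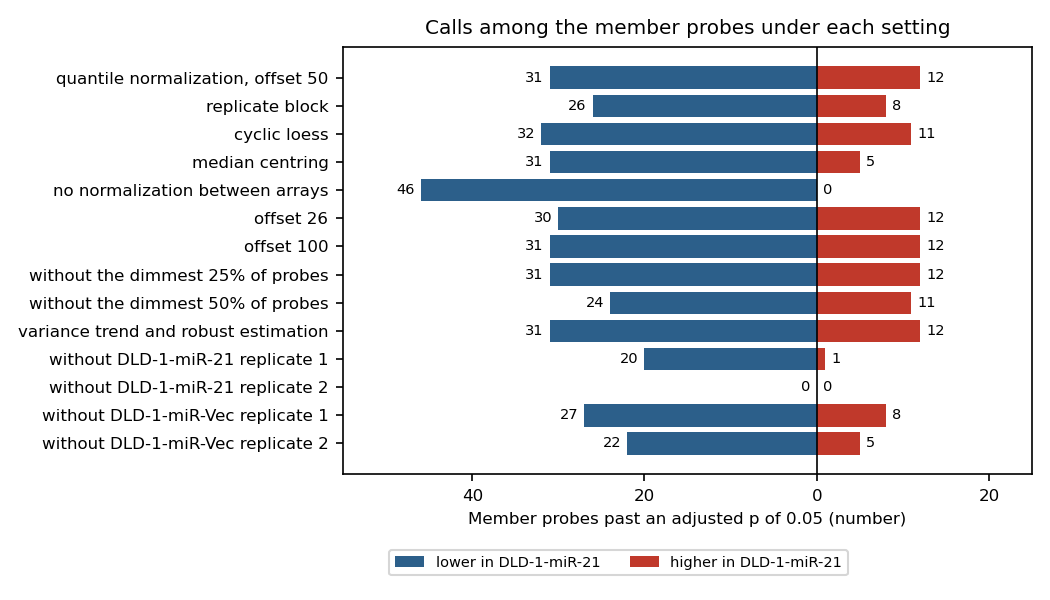
Bars count the decay probes past an adjusted p of 0.05 under each setting, lower in DLD-1-miR-21 to the left and higher in DLD-1-miR-21 to the right of 0. The count of lower probes stays between 24 and 46 wherever all 4 arrays are used, and the higher count drops to 5 with median centring and to 0 without normalization.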

How the data were processed

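Both DLD-1 lines were profiled on Human OneArray Plus arrays, with 4 single-color arrays in all. The deposited table holds a linear intensity per probe, with background already subtracted, as 0 to 176 values per array lie below 0. How the authors scanned and normalized the arrays is not given in the sources used here. Deposited intensities were quantile-normalized, 50 was added and log2 was taken. Lines were compared with lmFit and eBayes of limma 3.58.1 (R 4.3.3) with the line as the only term (residual degrees of freedom 2, prior 2.48). The Benjamini-Hochberg adjustment covered all 31741 probes. Because 50 was added, the log2 ratios of dim probes understate the change. The threshold was an adjusted p of 0.05.

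Gene symbols are those of the array's annotation, some of them outdated. Of all probes, 24740 had 1 symbol, 977 had several and 6024 had none, and only probes with 1 symbol named a gene, which left out 2 probes with a member's symbol among several. Values of each array are printed for the 3 largest increases and 3 largest decreases past the threshold in each role, and for genes with calls in both directions. A few further probes are given by array as well. Members and lists were chosen with earlier results of these data known. The alternatives were the replicate number as a block, cyclic loess, median centring, no normalization, offsets of 26 and 100, filters that drop the dimmest 25% or 50% of probes, robust estimation with a variance trend, the brightest probe of each gene, the study's thresholds (a log2 ratio of 1 or more in size and an unadjusted p under 0.05), and leaving out each array. Scripts were tested on simulated data. Promoters and the microRNA came from RefSeq tables of GRCh38.p14.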

Additional observations from a re-analysis of the deposited data

How the results depend on the processing

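Of 31 lower and 12 higher probes, 26 and 8 were called with the replicate block, against 18.1% lower and 17.9% higher over all probes. No label says whether same-numbered arrays belong together. Their deviations correlated at -0.0685, and with 2 pairs this decides nothing. The study's thresholds gave 17 lower and 4 higher, median centring 31 and 5, and no normalization 46 and 0. Counting each gene by its brightest probe gave 23 lower and 10 higher genes. This count and that at the study's thresholds were not made over the whole array. Cyclic loess, both other offsets, both filters on dim probes and the variance trend gave 24 to 32 lower and 11 or 12 higher. Over all probes tested, these settings called 21.6% to 27.2% lower and 19.3% to 29.5% higher. Leaving out 1 array gave 0 to 27 lower and 0 to 8 higher, namely 20 and 1 without DLD-1-miR-21 replicate 1, 0 and 0 without DLD-1-miR-21 replicate 2, 27 and 8 without DLD-1-miR-Vec replicate 1, and 22 and 5 without DLD-1-miR-Vec replicate 2. The shares called over all probes fell in each of these fits as well, so the smaller counts do not set the decay genes apart. The median log2 ratio of the decay probes minus that of all probes was -0.73, -0.63, -0.58 and -0.59, in the same order. Each fit without an array takes the lone array to vary like the other line. Log2 ratios turned negative without normalization for EXOSC6 (-0.52), SKIV2L2 (-1.05), SKIV2L (-0.56), WDR61 (-0.56), CNOT1 probe 2 (-0.65), CNOT2 probe 1 (-1.17), CNOT10 (-0.59), CNOT6 probe 1 (-0.45), PARN (-0.41), TOB1 (-0.64), DDX6 probe 2 (-0.96), XRN1 probe 1 (-0.28), PABPC1 (-0.25), DIS3 (-0.62), PAN2 probe 2 (-0.15) and DCP2 probe 2 (-0.25), which follows the shift of nearly all probes. Under median centring, signs turned for SKIV2L2 (-0.20), CNOT2 probe 1 (-0.32), DDX6 probe 2 (-0.11) and CNOT6L probe 2 (0.13), and under cyclic loess DIS3 came to just below 0 (rounding to 0), and the cause was not tested. With 1 array left out, ratios of probes that had not passed crossed 0, over -0.14 to 0.12 for EXOSC8 probe 1, -0.14 to 0.03 for EXOSC8 probe 2, -0.05 to 0.20 for DIS3, -0.16 to 0.40 for CNOT1 probe 2, -0.02 to 0.22 for CNOT2 probe 1, -0.41 to 0.03 for CNOT6L probe 1, -0.24 to 0.06 for PAN2 probe 1, -0.12 to 0.02 for EDC3 and -0.12 to 0.34 for DDX6 probe 2. Of the decay probes, 8 of 16 dimmer ones did not pass, against 10 of 45 brighter ones. Over the array, 10343 of 15871 dimmer and 7192 of 15870 brighter probes did not pass. How far dimness hides changes was not tested.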
